A study of Mus musculus with 24 samples.

Results

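The genes described here are 9 protein-coding neighbours of Pdgfb on mouse chromosome 15: Sun2, Cbx6, Apobec3, Cbx7, Rpl3, Syngr1, Tab1, Mgat3 and Cacna1i. They were taken by gene symbol from the 32288 genes listed in the count tables, and all 9 were found. They were picked for lying close to the targeted gene and with differences between genotypes in these data already known, so their values between mutant and control mice are given as a description, without a p value. The study prepared nuclei from the deep brain (calcification-prone) and the cortex (free of calcification) of 6 Pdgfb ret/ret mice, called mutant, and 6 Pdgfb ret/wt mice, called control, of the strain B6.Pdgfbtm3Cbet. Each mouse gave a library from either region, 24 in all. Female mice made up the mutants and 5 of the controls, control mouse 6 was male, and by the labels the mice were between 4 months 7 days and 5 months 18 days old. The ret allele is known to remove the retention motif of PDGF-B, through which the secreted growth factor is held near the endothelium. The controls also carry 1 ret allele, and mice without it were not analysed here. DNA that lies beside a targeted gene is inherited with it, so mutants carry 2 copies, and controls 1 copy, of whatever flanking DNA came with the allele. The effect of such linked DNA and that of the allele cannot be told apart in this design, since every mutant has both.

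Each library was made with a droplet kit that reads the 5′ end of transcripts, and the deposited values are counts of unique molecular identifiers (UMIs), each standing for 1 captured RNA molecule. Libraries held 23625232 to 96459036 UMIs, and 124958 of 127519 deep brain and 79967 of 109705 cortical barcodes were kept. The median depth of kept nuclei was 3547 to 7314.5 UMIs per library in the deep brain. In the cortex it was 804 to 8054, with 7 of 12 libraries under 1500. Any pair of libraries shared 8 to 220 barcodes, at most 1.99% of the smaller library. Cell classes were named from marker genes, and all 6 microglial markers were at least 76.6-fold higher in microglia than in other deep brain nuclei. Clusters left unnamed held 45.5% of control and 55.7% of mutant nuclei of the cortex, and 7.20% and 8.33% of the deep brain. In cortical neurons 3 of 5 markers passed 2-fold, against all nuclei outside the class.

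Levels are given as CPM, the UMIs of a gene divided by all UMIs of a class in 1 library and multiplied by 1000000, as mean ± SD over 6 mice. CPM is not corrected for gene length, so levels are compared between classes and mice for 1 gene at a time. A gene was called between groups where the adjusted p of edgeR's quasi-likelihood test on summed counts was under 0.05.

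The neighbours do not form a single pathway. Apobec3 encodes a cytidine deaminase that restricts retroviruses and is known to be expressed in immune cells. Cbx6 and Cbx7 encode chromodomain subunits of polycomb repressive complex 1, which keeps genes silent by binding modified histones. Rpl3 encodes a protein of the large ribosomal subunit, Syngr1 a membrane protein of synaptic vesicles, Tab1 an activator of the kinase TAK1 in inflammatory signaling, Mgat3 the enzyme that adds a bisecting sugar to N-glycans, Cacna1i the pore of a T-type calcium channel, and Sun2 an inner nuclear membrane protein that links the lamina to the cytoskeleton.

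In the GENCODE annotation of GRCm38 (mm10), Sun2 is at chr15:79724070-79742536 on the minus strand, Cbx6 at chr15:79823896-79834688 (minus), Apobec3 at chr15:79891659-79915906 (plus) and Cbx7 at chr15:79915807-79971119 (minus). Pdgfb follows at chr15:79995874-80014977 (minus). Beyond it are Rpl3 at chr15:80077791-80091868 (minus), Syngr1 at chr15:80091334-80119501 (plus), Tab1 at chr15:80133127-80161707 (plus), Mgat3 at chr15:80173721-80215519 (plus) and Cacna1i at chr15:80287238-80398279 (plus). Measured from the start of Pdgfb, negative towards lower coordinates, the nearest start was that of Cbx7 at -43.9 kb, Apobec3 started at -123 kb, and Sun2 and Cacna1i at the ends started at -272 and 272 kb. Apobec3 and Cbx7 overlap at their 3′ ends on opposite strands, and Rpl3 and Syngr1 overlap at their 5′ ends. Apobec3 also shares sequence with the listed gene AC113595.1 on its own strand, and reads there cannot be told apart.

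The kit reads transcripts from their 5′ end. RefSeq (GRCm38.p6) promoters were matched for 6 of the 9 genes, and the 250 bases before each annotated start are shown for the 2 starts of Apobec3, at chr15:79892158-79892407 and chr15:79894773-79895022 on the plus strand, and for Cbx7, at chr15:79932647-79932896 on the minus strand, the 2 genes that were called between genotypes. RefSeq and GENCODE place these starts differently. The RefSeq start of Cbx7 lies inside the GENCODE span given above, whose outer end at 79971119 was used for the distance from Pdgfb, so the stretch shown for Cbx7 overlaps a GENCODE exon of Cbx7 itself. The first Apobec3 stretch likewise overlaps a GENCODE exon of Apobec3. Capitals mark matches, on either strand, to 3 motifs searched in all 32851 promoters of the table: the core of the interferon-stimulated response element, which repeats the letters GAAA with 2 bases of any kind between the copies, the core of PU.1 type sites, which is GAGGAA, and the TATA box, searched as TATAAA. Matches of different motifs did not overlap here.
Apobec3, first start: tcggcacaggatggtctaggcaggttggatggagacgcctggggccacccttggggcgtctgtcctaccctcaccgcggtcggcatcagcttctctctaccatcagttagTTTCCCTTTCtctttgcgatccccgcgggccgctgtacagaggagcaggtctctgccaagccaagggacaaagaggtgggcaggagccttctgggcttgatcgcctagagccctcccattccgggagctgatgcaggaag
Apobec3, second start: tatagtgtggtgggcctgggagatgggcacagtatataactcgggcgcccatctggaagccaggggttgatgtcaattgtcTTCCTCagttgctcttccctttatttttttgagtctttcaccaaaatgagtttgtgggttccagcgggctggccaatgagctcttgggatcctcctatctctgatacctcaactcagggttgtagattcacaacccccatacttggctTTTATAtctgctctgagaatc
Cbx7: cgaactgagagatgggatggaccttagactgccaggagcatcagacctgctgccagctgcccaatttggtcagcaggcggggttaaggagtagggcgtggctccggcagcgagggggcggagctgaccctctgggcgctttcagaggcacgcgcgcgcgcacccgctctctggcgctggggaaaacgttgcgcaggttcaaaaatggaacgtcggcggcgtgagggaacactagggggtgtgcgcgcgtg
The upstream start of Apobec3 held 1 match to the interferon element core, which lies on the other strand, with its first base at -140 from the start. This motif was found in 2.98% of all promoters. The downstream start held 1 match each to GAGGAA, read as TTCCTC, and TATAAA, read as TTTATA, which 23.3% and 12.4% of promoters hold. None of the 3 motifs was found in these 250 bases of Cbx7. A match is a run of letters and not a measured binding site.

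Pdgfb itself, the targeted gene, was counted in both genotypes, and UMIs do not show the small deletion of the ret allele, so its level checks no label. In deep brain endothelial cells, where its mean was highest, Pdgfb was at 140 to 263 CPM in controls and 140 to 219 CPM in mutants. In deep brain microglia it was at 62.7 to 99.8 CPM in controls and 39.5 to 95.9 CPM in mutants. The ranges overlapped in both classes.

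Apobec3 was highest in microglia, and there it was lower in every mutant than in any control. In deep brain microglia the 6 controls were at 100.3 to 132 CPM with a median of 104 (110.8 ± 13.1, n = 6, 253 UMIs in all). The 6 mutants were at 34.0 to 54.0 CPM with a median of 39.5 (40.7 ± 6.86, n = 6, 114 UMIs). The groups did not overlap, and the mean was 2.72-fold higher in controls. The fitted log2 fold change, mutant over control, was -1.42 (SE 0.16), and it ranged from -1.52 to -1.37 as each mouse was left out. In cortical microglia the controls were at 78.7 to 121 CPM with a median of 84.3 (90.1 ± 16.4, n = 6, 106 UMIs). The mutants were at 17.3 to 59.8 CPM with a median of 42.9 (40.4 ± 16.2, n = 6, 75 UMIs). Here, too, no mutant reached the lowest control. These libraries held 18 to 308 microglial nuclei and 2 to 60 Apobec3 UMIs each, and over all 12 mice the gene did not pass the filter on low counts. Without that filter its log2 fold change in the cortex was -1.05 (SE 0.28), which was not called. It was called, at -1.27 (SE 0.20), when the nuclei in which Mrc1, Mbp, Aqp4 or Rbfox3 was counted were kept among the microglia.

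Deep and cortical microglia of a genotype came from the same mice, so they are not separate evidence. The share of deep brain microglia with at least 1 Apobec3 UMI was 22.3% in controls and 8.13% in mutants at median depths of 2366 and 2170 UMIs, and 10.4% and 4.40% after each nucleus was thinned to 1000 UMIs. Oligodendrocytes of the same libraries, which gave the background, had 0.0995% and 0.0552% at median depths of 2627 and 2694 UMIs, and 0.0388% and 0.0350% after thinning.

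**Figure D1:**
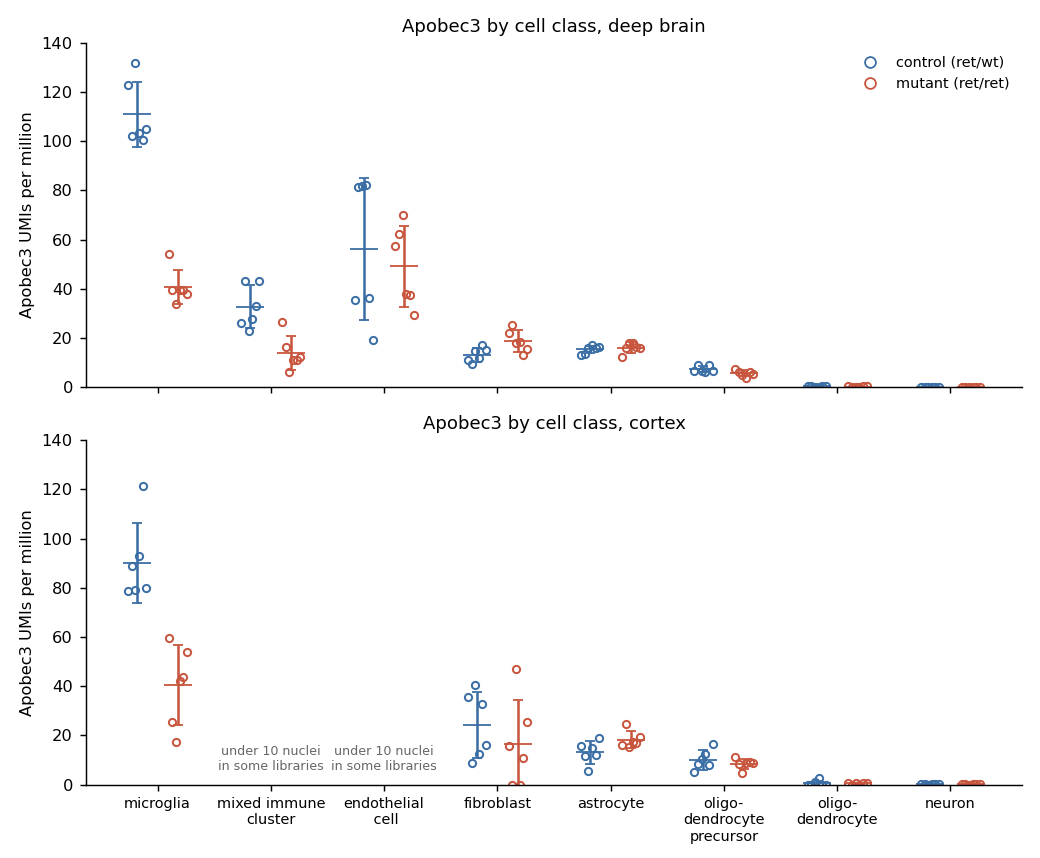
Apobec3 CPM (vertical axis) in each cell class (horizontal axis) of the deep brain (top) and cortex (bottom). Each circle is 1 mouse, blue for control and red for mutant, and the bars are mean ± SD. In microglia all 6 mutants lie below all 6 controls in both regions, while in astrocytes, fibroblasts, precursors and deep brain endothelial cells the circles of the genotypes overlap, and 2 cortical classes with under 10 nuclei in some libraries are not drawn.

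In deep brain controls the order of Apobec3 levels was microglia, endothelial cells (56.0 ± 28.8 CPM, n = 6), astrocytes (15.3 ± 1.58), fibroblasts (13.2 ± 2.85), ependymal cells (13.0 ± 19.0), oligodendrocyte precursor cells (7.32 ± 1.30), oligodendrocytes (0.36 ± 0.23) and neurons (0.18 ± 0.05). The ranges of neighbours in this order separated between microglia and endothelial cells, between endothelial cells and astrocytes, and between precursors and oligodendrocytes, and overlapped elsewhere. Mutant astrocytes were at 16.0 ± 2.12 CPM and mutant endothelial cells at 49.1 ± 16.3 CPM in the deep brain, within the spread of the controls. Deep brain fibroblasts had 13.2 ± 2.85 CPM in controls and 18.7 ± 4.44 CPM in mutants, and precursors 7.32 ± 1.30 and 5.58 ± 1.25 CPM, with ranges that overlapped. In deep brain precursors 5 of 6 mutants lay below the lowest control, against 1 in astrocytes and 0 in endothelial cells and fibroblasts. In the sum of all nuclei, which includes microglia, 5 of 6 mutants did so in either region. Apobec3 was lower on average in mutants in 12 of 16 combinations of class and region, and the ranges separated only in the microglia of both regions. The 16 combinations, used for the other genes too, come from the same 12 mice and include sums over all nuclei of a region. They are therefore not separate evidence.

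An unnamed cluster of mixed immune nuclei, led by Cd74, Csf1r and Ptprc in the deep brain and by Cd74, Ptprc and Mrc1 in the cortex, also had a lower mean of Apobec3 in mutants. The cluster was left unnamed because it carried neuron markers too. Its median depth was 5017 UMIs in the deep brain and 5475 in the cortex, against 2270 and 2268 in the microglial clusters. Its CPM are thus not set against those of microglia, and the part of neuronal RNA in them was not tested. In its deep brain nuclei the controls were at 22.9 to 43.3 CPM (32.7 ± 8.72, n = 6) and the mutants at 6.21 to 26.5 CPM (13.9 ± 6.96, n = 6). Apobec3 in its cortical nuclei was at 23.4 to 43.0 CPM in controls and 7.26 to 29.1 CPM in mutants, from as few as 8 nuclei and 1 UMI per library. In both regions 1 mutant lay within the control range. The cluster made up 0.791% ± 0.0678 of deep brain nuclei in controls and 1.36% ± 0.244 in mutants (n = 6 each). In the deep brain its summed microglial markers were at 2992 to 3996 CPM in controls and 2557 to 3794 CPM in mutants, its 7 border macrophage markers at 201 to 898 and 233 to 597 CPM, and its 10 lymphocyte markers at 42.6 to 170 and 89.5 to 342 CPM. In the cortex the microglial markers were at 2769 to 5823 CPM in controls and 2136 to 6574 CPM in mutants, and the border macrophage markers at 0 to 1210 and 202 to 1411 CPM. The cortical lymphocyte markers were at 8.88 to 136 CPM in controls (47.4 ± 47.5, n = 6) and 21.9 to 792 CPM in mutants (373 ± 306, n = 6), a higher mean in mutants with overlapping ranges. The part of this mixture in the Apobec3 values was not tested.

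Other values differed between genotypes in the same microglia, and their part in the Apobec3 difference was not tested. The summed CPM of 18 interferon response genes was 615 to 905 in controls and 938 to 1494 in mutants of the deep brain, and 383 to 673 and 894 to 1421 in the cortex, so that all mutants lay above all controls while Apobec3 lay below. Over the 16 comparisons 24 of 139 tests of these genes were called higher and 1 lower in mutants. Over all genes 0.958% of tests were called. Of the 24, 8 were in the sum of all deep brain nuclei and 5 in that of all cortical nuclei. These sums hold the other classes. Another 7 were in deep brain astrocytes. In microglia 1 of 9 tests was called in the deep brain and 0 of 4 in the cortex. The deep brain call was Nlrc5, an activator of MHC class I genes, which rose by 1.87 on the log2 scale (SE 0.33; edgeR adjusted p = 0.00468). The sum of 8 activated microglia markers was 194 to 332 CPM in deep brain controls and 324 to 914 CPM in mutants, and ranges overlapped narrowly. The 6 microglial markers overlapped broadly, at 13131 to 16835 CPM in controls and 11233 to 16445 CPM in mutants. Of 7 border macrophage markers 5 had no UMI in microglia, and their sum was at most 4.15 CPM in a deep brain library and 7.73 CPM in a cortical library. Of 10 lymphocyte markers 3 had no UMI, and the sum was 18.6 to 42.4 CPM in controls and 24.4 to 72.7 CPM in mutants. AC113595.1, which overlaps Apobec3, had 29 UMIs in deep brain control microglia and 19 in mutants, or 12.6 and 6.82 CPM pooled over mice. In cortical microglia it had 10 UMIs in each genotype, or 9.62 CPM in controls and 6.04 CPM in mutants, so its pooled level was lower in mutants in both regions.

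Across the 28 means over class, region and genotype, the genes whose log2(CPM + 1) followed Apobec3 most closely among 17165 genes were Il15 (Pearson r 0.968), Tap2 (0.963), Erap1 (0.960), Slc35d2 (0.957) and Eif2ak2 (0.957). These means share libraries, and the correlations are descriptions. In deep brain microglia Il15 was at 197 CPM in controls and 192 CPM in mutants. Tap2 was at 52.2 and 61.2 CPM, Erap1 at 83.3 and 88.0 CPM and Eif2ak2 at 76.9 and 98.8 CPM. Slc35d2 was at 29.5 and 20.6 CPM. Tap2, Erap1 and Eif2ak2 thus had higher microglial means in mutants, and Il15 and Slc35d2 lower ones. Among the other AID/APOBEC deaminases, Apobec1 rose by 0.43 on the log2 scale (SE 0.08; edgeR adjusted p = 0.0248) in all deep brain nuclei. It was the only call in 11 tests of these deaminases over all comparisons. In all deep brain nuclei 192 of 21040 genes rose and 132 fell. In the same libraries microglia made up 1.64% ± 0.189 of nuclei in controls and 1.98% ± 0.180 in mutants (n = 6 each), and the mixed immune cluster was larger in mutants too, as given above. Their part in the Apobec1 value was not tested. In microglia the only other deaminase that could be tested had log2 fold changes of 0.11 in the deep brain and 0.04 in the cortex, neither called.

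Over all 16 genotype comparisons 2 of 96 tests of the 9 genes were called, Apobec3 in deep brain microglia and Cbx7 in deep brain oligodendrocytes, both lower in mutants. Of all genes 0.958% of tests were called. The other 91 genes of a window of 50 listed genes on each side of Pdgfb had 16 of 662 tests called, 6 higher and 10 lower (2.42%), and the rest of chromosome 15 had 73 of 5825 (1.25%). With so few calls, and with the 9 genes picked from this contrast, nothing is read from these shares. All values of the mutants lay below all values of the controls in 0.475% of tests over all genes and above in 0.595%, and for the 9 genes this held below in 5 of the 96 tests and above in none. Apobec3 in cortical microglia, which did not pass the count filter and so is outside the 96, also had all mutants below all controls. In deep brain microglia 0.137% of genes were called and 0.206% had all mutants below all controls; in cortical microglia these shares were 0.144% and 0.217%. In deep brain oligodendrocytes they were 1.85% and 0.986%, and in cortical oligodendrocytes 0.84% and 0.662%.

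**Figure D2:**
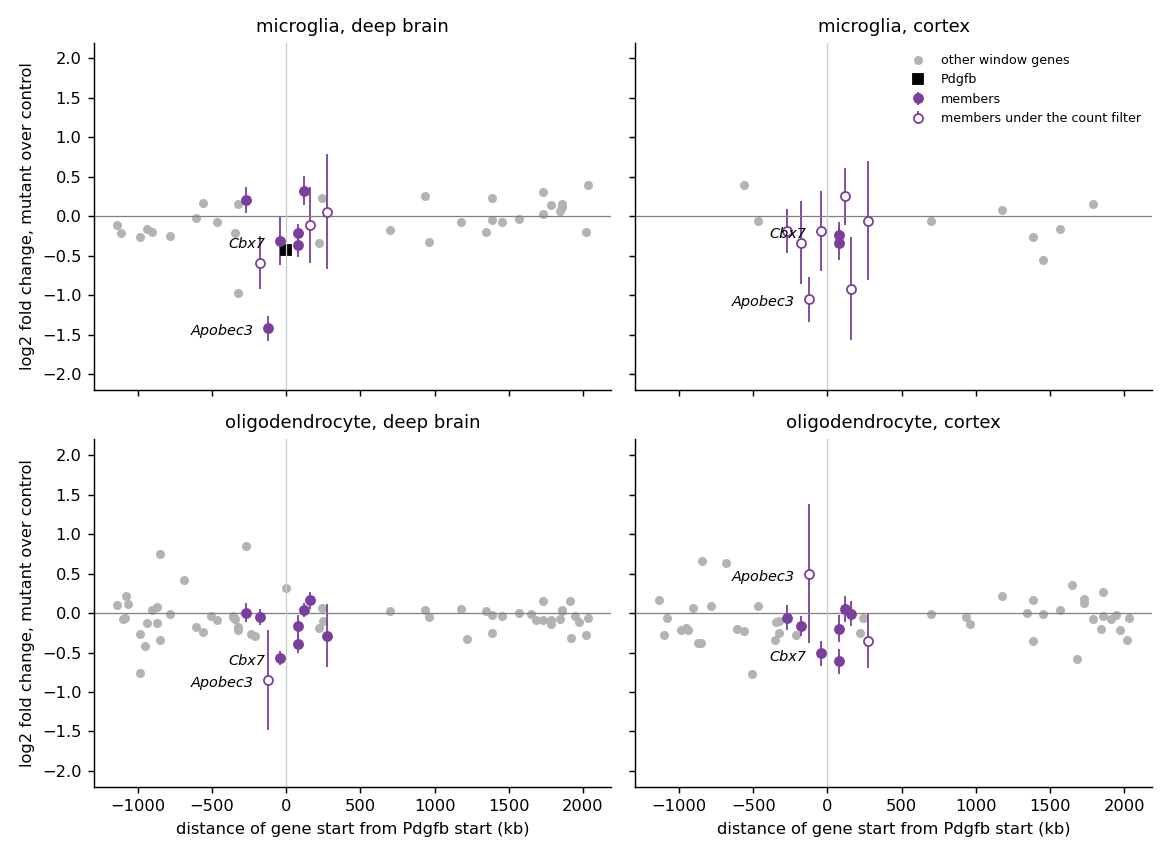
Log2 fold change, mutant over control (vertical axis), against the distance of a gene's start from the start of Pdgfb in kb (horizontal axis) in microglia and oligodendrocytes of both regions. Purple points are the 9 genes with SE (open where the count filter was not passed), grey points the other window genes that passed it, and the black square Pdgfb. Apobec3 is the lowest point in deep brain microglia at -1.42, and Cbx7 is at -0.57 and -0.51 in oligodendrocytes.

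In sums over all nuclei, fewer nuclei of a type and less RNA per nucleus cannot be told apart. The called window genes other than the 9 were all in the deep brain, and the nearest was Kdelr3 at -499 kb. These calls were not stable: the 7 in all deep brain nuclei became 3 with the replicate block by age, and 1 without control mouse 5, mutant mouse 2 or mutant mouse 3. In all cortical nuclei, where none was called, DESeq2 and the replicate block each called 4. Gm10865, Gm17753, Sh3bp1 and Pick1 fell in all nuclei and in neurons, with log2 changes in all nuclei of -0.84, -0.56, -0.25 and -0.21 (SE 0.18, 0.12, 0.05 and 0.04). Sh3bp1 encodes a Rac-directed GTPase activator and Pick1 a scaffold that binds glutamate receptors. Gm10863 and Pla2g6, a phospholipase, rose in all nuclei and in oligodendrocytes, by 0.70 (SE 0.13) and 0.28 (SE 0.06) in all nuclei. Kdelr3 rose in all nuclei, 1700088E04Rik rose in astrocytes, Csdc2 fell in astrocytes and Desi1 fell in oligodendrocytes. No window gene other than Apobec3 was called in microglia, where 31 window genes outside the 9 were tested in the deep brain and 8 in the cortex. Gtpbp1, at -324 kb and named after its value was seen, had the lowest log2 fold change after Apobec3 in deep brain microglia, at -0.97 (SE 0.29), not called. Glutamatergic neurons made up 20.7% ± 8.88 of deep brain neurons in controls and 6.26% ± 4.74 in mutants, a shift in sampled neurons that moves with the neuronal and all-nuclei values and whose part in them was not tested.

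Cbx7 was lower on average in mutants in 15 of 16 combinations of class and region. In deep brain oligodendrocytes the controls were at 25.3 to 32.2 CPM with a median of 29.5 (29.1 ± 2.50, n = 6, 1233 UMIs). The mutants were at 15.3 to 21.7 CPM with a median of 19.7 (19.2 ± 2.24, n = 6, 773 UMIs). The groups did not overlap, and the log2 fold change was -0.57 (SE 0.09). In cortical oligodendrocytes Cbx7 was at 22.81 to 43.5 CPM in controls and 20.7 to 22.76 CPM in mutants, which separated by a narrow margin (log2 fold change -0.51, not called). Precursors of the deep brain were at 14.3 ± 4.75 CPM in controls and 9.73 ± 2.91 CPM in mutants, and their ranges overlapped. Cbx7 passed the count filter in 11 comparisons with log2 fold changes of -0.57 to -0.08, all negative.

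Cbx6, which encodes another chromodomain subunit of the same complex, was not called between genotypes in any class. Its ranges overlapped in all 16 combinations, and its 11 tested log2 fold changes ran from -0.26 to 0.20. Cbx6 did not pass the count filter in deep brain microglia, where it was at 23.3 CPM in controls and 15.3 CPM in mutants on average, with all 6 mutants below the control median and an unfiltered log2 fold change of -0.59 (SE 0.34), not called. In deep brain oligodendrocytes it was at 25.2 ± 2.56 CPM in controls and 23.9 ± 4.31 CPM in mutants. None of the other polycomb repressive complex 1 genes was called, and the 18 of 21 listed that were tested in deep brain oligodendrocytes had a median log2 fold change of -0.06, against 0.00 over all genes.

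Rpl3 was also lower on average in mutants in 15 of 16 combinations, and none was called without a replicate block. In deep brain oligodendrocytes it was at 63.9 to 94.97 CPM in controls (79.8 ± 11.1, n = 6) and 46.2 to 74.7 CPM in mutants (60.0 ± 11.7, n = 6), so that the ranges overlapped. This comparison was called only with mice matched by age as a block, at -0.39 (SE 0.09). The ranges separated only in deep brain precursors, at 56.5 to 66.9 CPM in controls and 36.4 to 54.5 CPM in mutants. Over 15 comparisons its log2 fold changes had a median of -0.29. Of the other large subunit ribosomal protein genes 43 of 46 were negative in deep brain oligodendrocytes, with a median of -0.13, and 42 of 46 in all deep brain nuclei, with a median of -0.06. In the cortex 44 of 46 were negative in neurons, with a median of -0.11 (Rpl3 -0.28), 42 of 46 in oligodendrocytes, with a median of -0.16 (Rpl3 -0.20), 37 of 43 in astrocytes, with a median of -0.21 (Rpl3 -0.37), and 18 of 19 in fibroblasts, with a median of -0.64 (Rpl3 -0.40). In all cortical nuclei, which include the unnamed clusters, 3 of 46 were negative with a median of 0.10, and Rpl3 had -0.12 (SE 0.26), a value that ran from -0.27 to 0.03 as each mouse was left out. In deep brain microglia 21 of 45 were negative with a median of 0.01, and Rpl3 had -0.36 (SE 0.15). None of these values was called.

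Syngr1 was lower on average in mutants in 15 of 16 combinations. In cortical oligodendrocytes the controls were at 29.0 to 39.3 CPM with a median of 33.1 (33.6 ± 3.76, n = 6) and the mutants at 12.4 to 26.0 CPM with a median of 22.5 (21.3 ± 5.04, n = 6), without overlap and with a log2 fold change of -0.61 that was not called. With DESeq2, the replicate block and the block by age it was called, at -0.60, -0.59 and -0.62. In deep brain oligodendrocytes Syngr1 was at 18.6 to 29.8 and 15.9 to 27.9 CPM and the ranges overlapped. A difference between the regions in this was not shown (0.48 on the log2 scale; two-sided exact permutation p = 0.0584, adjusted p = 0.910 over 57 combinations). In all deep brain neurons the ranges of 71.9 to 86.1 and 61.6 to 82.7 CPM overlapped as well. In the deep brain glutamatergic neurons among them, a subset outside the 16 combinations, all 6 mutants lay below all controls. Their means were 84.1 CPM in controls and 59.7 CPM in mutants, from 6367 and 2199 nuclei. Deep brain GABAergic neurons, at means of 49.8 and 39.3 CPM, overlapped, as did both types in the cortex. Rpl3 and Syngr1 lie head to head and overlap at their 5′ ends.

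**Figure D3:**
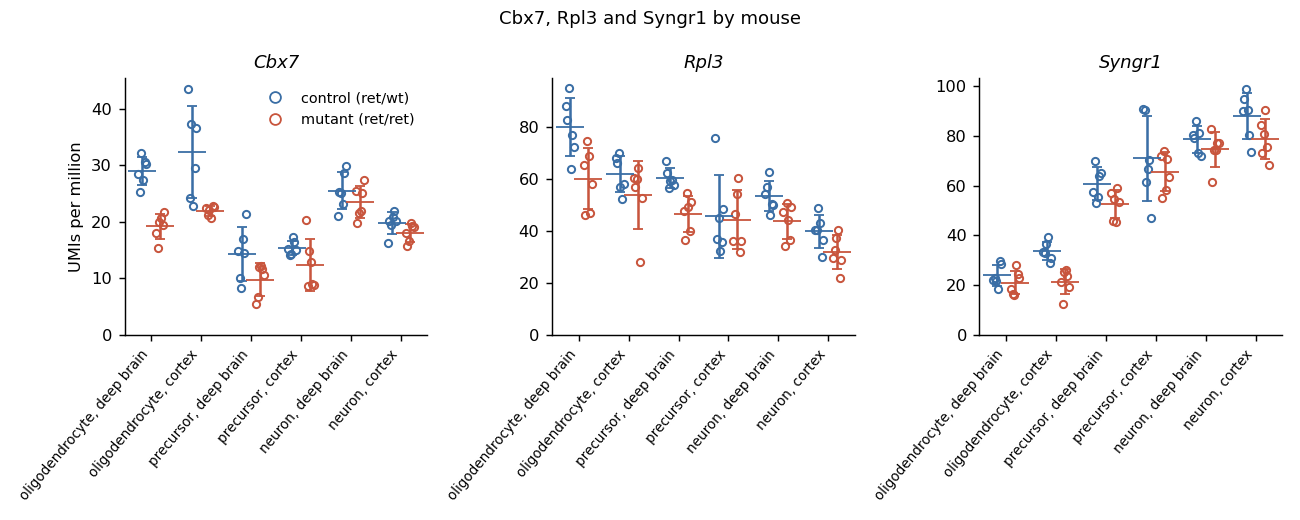
CPM (vertical axes) of Cbx7, Rpl3 and Syngr1 in oligodendrocytes, their precursors and neurons of both regions (horizontal axes). Each circle is 1 mouse, blue for control and red for mutant, and bars are mean ± SD. Cbx7 separates the genotypes in deep brain oligodendrocytes (25.3 to 32.2 against 15.3 to 21.7 CPM) and Syngr1 in cortical oligodendrocytes.

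Tab1, Mgat3, Cacna1i and Sun2 had overlapping ranges in all 16 combinations. Their means were lower in mutants in 6, 10, 8 and 10 of the 16. Of the 12 tested log2 fold changes of Tab1, 1 was negative. Tab1 had log2 fold changes of -0.26 to 0.33 over 12 comparisons, Mgat3 of -0.35 to 0.16 over 10, Cacna1i of -0.29 to 0.25 over 6 and Sun2 of -0.17 to 0.21 over 12, and none was called. In deep brain microglia Tab1 was at 40.6 ± 5.75 CPM in controls and 50.3 ± 8.24 CPM in mutants, and Sun2 at 73.7 ± 18.3 and 83.7 ± 12.5 CPM. Of the families, none of the genes of the TAK1 complex, the T-type channels or the synaptogyrin and synaptophysin family was called. In cortical oligodendrocytes 4 of 5 relatives of Syngr1 in its family were negative. Their median log2 fold change was -0.51, against -0.0063 over all genes. In deep brain oligodendrocytes 3 of 5 were negative, with a median of -0.14. Over all comparisons the medians of this family ran from -0.62 to 0.09. Among LINC complex and lamin genes, Syne2, a giant nesprin that binds SUN proteins, fell in astrocytes by 0.95 on the log2 scale in the deep brain (SE 0.20; edgeR adjusted p = 0.0106) and by 0.97 in the cortex (SE 0.23; edgeR adjusted p = 0.0318). Syne1 fell in deep brain astrocytes by 0.43 (SE 0.10) and Lmna in all deep brain nuclei by 0.34 (SE 0.07). Of the N-glycan branching enzymes Mgat5 rose in cortical astrocytes by 0.91 (SE 0.13) and Mgat4a in deep brain astrocytes by 0.51 (SE 0.13). Over all comparisons these were 4 of 89 tests of LINC and lamin genes and 2 of 101 of N-glycan enzymes, the 9 genes left out. Astrocytes had many calls over all genes. Of 13055 genes in the deep brain 404 rose and 239 fell, and of 7270 in the cortex 80 rose and 61 fell. Nothing particular to these families is read from the calls.

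**Figure D4:**
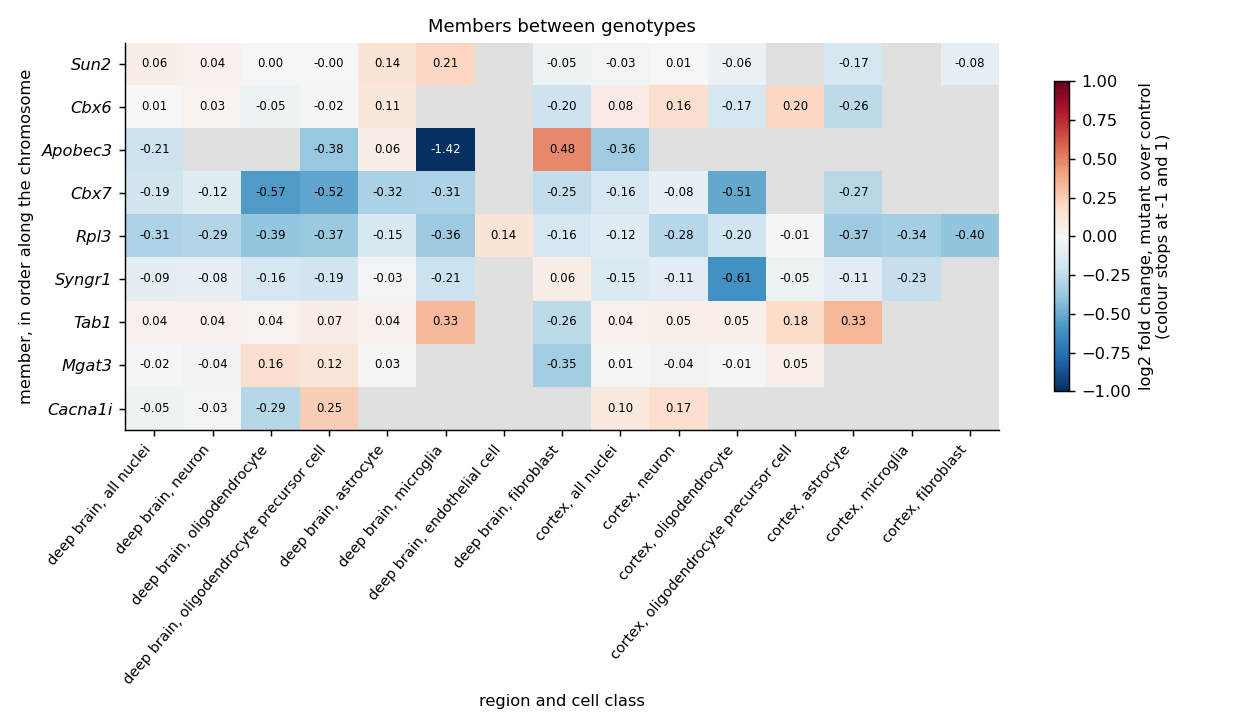
Log2 fold change, mutant over control, of the 9 genes (rows, in order along the chromosome) in each region and cell class (columns), with the value in each cell and grey where the count filter was not passed. The Cbx7, Rpl3 and Syngr1 rows are mostly blue (lower in mutants), Apobec3 in deep brain microglia is the darkest cell at -1.42, and the other rows hold both signs.

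Away from genotype, the neighbours differed in where they were expressed. In deep brain controls Syngr1 was highest in microglia (242 ± 39.0 CPM, n = 6), above neurons (78.6 ± 5.35), precursors (60.8 ± 6.53) and astrocytes (43.6 ± 6.55), each range separate from the next, and lowest in oligodendrocytes (23.9 ± 4.33). Cacna1i was at 48.7 ± 8.80 CPM in neurons and at 3.32 to 14.8 CPM on average in the other classes, and all neighbours in this order overlapped. Mgat3 was highest in fibroblasts (60.9 ± 8.53) and oligodendrocytes (53.9 ± 6.98), which overlapped, followed after a gap by precursors (33.1 ± 3.83) and neurons (31.9 ± 1.61). Sun2 was highest in microglia (73.7 ± 18.3) and fibroblasts (65.0 ± 9.42), which overlapped with each other and lay above astrocytes (36.0 ± 4.23). Rpl3 was highest in endothelial cells (174 ± 64.1) and microglia (140 ± 18.9). Tab1 ran from 16.8 CPM in endothelial cells to 40.7 CPM in oligodendrocytes, Cbx6 from 21.0 CPM in astrocytes to 46.6 CPM in fibroblasts and Cbx7 from 14.3 CPM in precursors to 32.7 CPM in ependymal cells, and all neighbours in these orders overlapped except precursors and neurons for Tab1.

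Neurons were not uniform. Over 12 neuronal clusters in each region, pooled over all mice, Cacna1i ran from 1.31 CPM in the deep brain cluster led by Slc6a3 and Th, genes of dopamine neurons, to 81.7 CPM in a cluster led by Spp1 and Cdh23. In the cortex it ran from 15.5 CPM in the cluster led by Vip to 88.8 CPM in the cluster led by Rarb, Rgs9 and Drd2. Sun2 was highest in the clusters led by Rarb and Rgs9, at 68.8 CPM in the cortex and 56.0 CPM in the deep brain, where Syngr1 was lowest at 38.8 and 38.0 CPM. The cluster led by Gabra6, a gene of cerebellar granule cells, held 4565 nuclei, of which 3970 came from mutants and 40.3% from 1 library. There Syngr1 (132 CPM), Mgat3 (56.0 CPM), Rpl3 (66.3 CPM) and Cbx7 (36.3 CPM) each reached their highest value among the deep brain neuronal clusters. Apobec3 stayed at or under 0.86 CPM in every neuronal cluster.

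The regions were compared within mice, deep brain over cortex, separately in controls and mutants. This contrast was not used to choose the genes. In all nuclei 5 of the 9 genes were called in the same direction in both genotypes. In controls Cbx6 had a log2 difference of -0.37 (SE 0.06; edgeR adjusted p = 0.000929), Syngr1 of -0.48 (SE 0.08; edgeR adjusted p = 0.00114) and Cacna1i of -0.27 (SE 0.07; edgeR adjusted p = 0.0142), so their sums over all nuclei were lower in the deep brain. Tab1 at 0.35 (SE 0.06; edgeR adjusted p = 0.00172) and Cbx7 at 0.23 (SE 0.05; edgeR adjusted p = 0.00634) were higher. In mutants the same genes had -0.44, -0.42, -0.39, 0.37 and 0.22. The background is high: 39.3% of genes were called in controls and 44.2% in mutants. These sums mix cell types, whose shares differed between regions. On average oligodendrocytes were 24.7% of control nuclei in the deep brain and 7.94% in the cortex. Unnamed low-depth clusters were 34.5% of control and 50.7% of mutant nuclei in the cortex, and 0% in the deep brain. In controls they held Cbx6 at 92.7 and Syngr1 at 173 CPM, against 47.8 and 88.0 CPM in cortical neurons. The part of these shares was not tested.

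Within neurons Cbx6, Cbx7, Rpl3, Syngr1 and Tab1 were called in both genotypes, where 40.4% of genes in controls and 51.8% in mutants were. Rpl3 was at 46.1 to 62.5 CPM in deep brain neurons and 30.1 to 48.8 CPM in cortical neurons of controls, a log2 difference of 0.32 (SE 0.06; edgeR adjusted p = 0.00305), and 0.31 (SE 0.09; edgeR adjusted p = 0.0159) in mutants. Cbx7 had 0.25 (SE 0.05) in controls and 0.21 (SE 0.05) in mutants, and Tab1 0.26 (SE 0.06) and 0.24 (SE 0.06). Syngr1 had -0.27 (SE 0.05) and -0.24 (SE 0.05), and Cbx6 -0.16 (SE 0.05) and -0.29 (SE 0.05). Cacna1i was called in mutants (-0.35, SE 0.09; edgeR adjusted p = 0.0106) and not in controls (-0.17, SE 0.07; edgeR adjusted p = 0.0819). Neurons of the regions are different types, and deep brain neurons had a median depth of 10400 UMIs in controls against 17270.5 in the cortex.

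In glia 3 tests were called, all in controls. Oligodendrocytes had more Rpl3 (0.38, SE 0.09; edgeR adjusted p = 0.00742) and less Syngr1 (-0.45, SE 0.14; edgeR adjusted p = 0.0491) in the deep brain, with 9.56% of genes called, and astrocytes less Cbx6 (-0.64, SE 0.19; edgeR adjusted p = 0.0281), with 13.8% called. The Syngr1 and astrocytic Cbx6 calls were lost under DESeq2 and without the count filter. No gene of the 9 was called in precursors (7.7% of genes called in controls and 9.18% in mutants), microglia (2.94% and 5.25%) or fibroblasts (0.0134% and 4.04%), nor in oligodendrocytes (12.3%) or astrocytes (14.8%) of mutants. Apobec3 in microglia had 0.18 (SE 0.20) in controls and -0.13 (SE 0.25) in mutants, and Mgat3 and Sun2 were called in no class. In all, 13 tests were called in controls and 11 in mutants, and 7 and 6 after nuclei were thinned to 1000 UMIs. By class the share of all genes called ran from 0.0134% to 40.4% in controls and from 4.04% to 51.8% in mutants. With thinning, calls over all genes fell from 19927 to 9167 in controls and from 24496 to 10258 in mutants. Nothing particular to the 9 genes is read from these counts. Thinning removed, in both genotypes, the calls of Cbx7 in all nuclei and of Cbx6 and Tab1 in neurons. It also removed the 3 glial calls of controls and the neuronal calls of Syngr1 and Cacna1i in mutants.

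**Figure D5:**
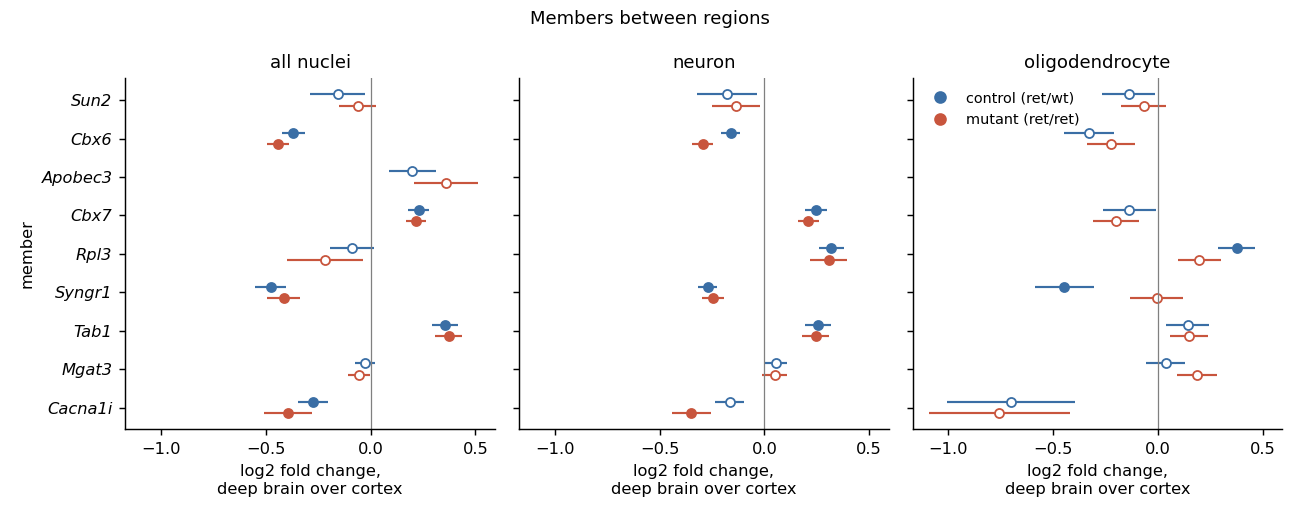
Log2 fold change, deep brain over cortex (horizontal axes), of the 9 genes (vertical axis) in all nuclei, neurons and oligodendrocytes. Blue points are the 6 controls and red points the 6 mutants, bars are SE, and filled points were called. In neurons Cbx7, Rpl3 and Tab1 lie right of 0, and Cbx6 and Syngr1 left of 0, in both genotypes.

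Whether the regional difference itself changed with genotype was tested by two-sided exact permutation over 924 splits of the mice in 57 combinations of gene and class. The splits took all mice as exchangeable and left aside that cortical samples of the same replicate number deviated together. The smallest p was 0.0541, for Cbx6 in astrocytes, and the smallest adjusted p was 0.910. The smallest p this design allows is 0.00216, with which a single combination of 57 could not pass 0.05 after adjustment, so the test does not show that the regional differences were alike in both genotypes.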

How the data were processed

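The authors deposited, for each of 24 libraries, UMI counts per gene and barcode made with Cell Ranger 5.0.1 (bcl2fastq 2.20.0.422) on mm10, introns included, for the barcodes that Cell Ranger called as nuclei. These counts carry no normalization. After the study's methods, barcodes were kept at over 500 and under 7000 genes if under 20% of UMIs were mitochondrial. Each region was clustered (20 principal components of 2000 variable genes, Leiden resolution 1, igraph 0.11.9) and clusters were named from marker lists. The naming rules were settled after the clusters had been seen. From microglia, nuclei in which Mrc1, Mbp, Aqp4 or Rbfox3 was counted were removed. No doublet caller was run, and an alternative left out nuclei above the 95th percentile of UMIs. A class was tested where every library held at least 10 of its nuclei. Its counts were summed per library and fitted with edgeR 4.0.16 in R 4.3.3 (filterByExpr, TMM, quasi-likelihood test, Benjamini-Hochberg, threshold 0.05), with mouse as a block for regions. The study's Wilcoxon rank sum tests on nuclei compared clusters and not genotypes, so they are not set beside the contrasts here. Nuclei of a mouse are not replicates, and mice were the replicates here. Scripts were tested on simulated counts. The genes and lists were chosen with earlier results of these data known. Named genes were the 9 neighbours and Pdgfb, up to 12 called window genes, up to 4 called genes per family list, and the 5 genes most like Apobec3.

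Samples with the same replicate number deviated together in the cortex, with all 6 correlations over 0.1 in all nuclei (0.212 to 0.762) and in neurons (0.127 to 0.687), while in every other class at least 1 pair was not. Cortical oligodendrocytes had 5 of 6 over it (0.0162 to 0.487) and cortical microglia 4 of 6. Mice matched by age gave 0.212 to 0.603 and 0.127 to 0.460. Alternatives were DESeq2 1.42.0, RLE factors, no count filter, these blocks, each mouse left out, clustering at resolution 0.5, no removal of microglial nuclei, a mitochondrial limit of 5%, and thinning to 1000 UMIs. Totals per library limit precision, and shares of nuclei with a UMI are means over 6 mice.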

Additional observations from a re-analysis of the deposited data

Results flagged for a closer look

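In 152 groups of 6 mice, the highest or lowest mouse was tested for standing apart from its group, and 9 values did, with mutant mice 1 and 4 of the deep brain each behind 2 of them. Chance alone gives about 1 in 20 groups, or 7.6 here. Apobec3 was at 54.0 CPM in deep brain microglia of mutant mouse 1, above the next mutant at 39.5 CPM and still below all controls, and at 121 CPM in cortical microglia of control mouse 5, whose nearest neighbour was at 92.8 CPM. Apobec3 was at 12.1 CPM in deep brain astrocytes of mutant mouse 1, with the nearest at 15.8 CPM, and at 29.1 CPM in the cortical mixed immune cluster of mutant mouse 3, from 2 UMIs, with the nearest at 9.60 CPM. Cbx6 was at 53.0 CPM in all deep brain nuclei and 55.8 CPM in deep brain neurons of mutant mouse 4, with the nearest at 43.7 and 47.5 CPM. Mgat3 was at 28.2 CPM in all cortical nuclei of mutant mouse 6, with the nearest at 31.3 CPM. Rpl3 was at 28.0 CPM in cortical oligodendrocytes of mutant mouse 5, with the nearest at 52.4 CPM. Sun2 was at 31.3 CPM in deep brain neurons of control mouse 6, the only male, with the nearest at 24.2 CPM.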

How the results depend on the processing

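Of 1124 values of the 9 genes between genotypes under the alternatives, 1121 moved by less than the SD between mice that the SE of the main fit implies. The alternatives share most of their data with the main fit, so few values could pass this wide limit and the count shows little. The mitochondrial limit of 5%, for example, left the called values of Apobec3 and Cbx7 unchanged. No called value reversed, while 46 uncalled ones turned sign. Of these, in all nuclei as each mouse was left out, deep brain Cbx6 ran from -0.07 to 0.04, Cacna1i from -0.12 to 0.02 and Mgat3 from -0.05 to 0.0047, and cortical Rpl3 ran from -0.27 to 0.03, Sun2 from -0.10 to 0.04, Tab1 from -0.02 to 0.09 and Mgat3 from -0.0085 to 0.05. Between regions 145 of 169 kept their direction and side of the threshold. With DESeq2 the calls between genotypes rose from 1620 to 3650 in all comparisons together, from 324 to 960 in all deep brain nuclei, from 247 to 505 in deep brain oligodendrocytes, from 50 to 270 in all cortical nuclei and from 85 to 209 in cortical oligodendrocytes. DESeq2 also called 29 tests of other window genes in place of 16 (11 in place of 7 in all deep brain nuclei and 4 in place of 0 in all cortical nuclei), 12 family genes in place of 7, and 51 in place of 32 of the interferon, activation, macrophage and lymphocyte lists. Without the count filter these lists had 56 calls, deep brain microglia 70 in place of 10, cortical microglia 56 in place of 4, cortical oligodendrocytes 218 and all cortical nuclei 77. With the replicate block there were 3082 calls in all, 18 family calls, 507 in all deep brain nuclei, 14 in cortical microglia, 507 in cortical oligodendrocytes, 418 in all cortical nuclei and 4 of window genes in the latter. Beside Cbx7 in deep brain oligodendrocytes and Apobec3 in deep brain microglia, called in each of these fits, DESeq2 and the replicate block called Syngr1 in cortical oligodendrocytes. The fits reuse the data from which the 9 genes were picked, so calls that recur are not separate evidence. With the replicate block by age 4 tests of the 9 genes were called in place of 2. The others were Syngr1 in cortical oligodendrocytes and Rpl3 in deep brain oligodendrocytes. Over all genes this block called 372 in cortical oligodendrocytes in place of 85. In cortical microglia it called 10 in place of 4, and in all cortical nuclei 241 in place of 50. Other window genes had 3 calls in all deep brain nuclei and 2 in all cortical nuclei. Nothing is read from the added calls of the 9 genes, which were picked from this contrast. Cortical microglia had 13 calls without removal of nuclei, Apobec3 among them. Window calls in all cortical nuclei were 1 with RLE factors, 1 without the count filter and 1 over named nuclei only, an alternative chosen after seeing the data. Thinned to 1000 UMIs, calls between regions were 9167 in place of 19927 in controls and 10258 in place of 24496 in mutants, and those of the 9 genes 7 and 6 in place of 13 and 11. The cause of these shifts was not tested.

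Each mouse was left out in turn in microglia and all nuclei only. Calls were then 8 to 15 in deep brain microglia, 92 to 450 in all deep brain nuclei, 3 to 10 in cortical microglia and 11 to 110 in all cortical nuclei. Other window genes had 0 calls in microglia of either region, 1 to 7 in all deep brain nuclei and 0 to 1 in all cortical nuclei. The lowest deep brain count was without control mouse 5 and the highest cortical count without mutant mouse 5. Uncalled differences between regions that turned sign were Apobec3 in control microglia (-0.0796) and Cbx6 in mutant astrocytes (0.23) after thinning, and Syngr1 in mutant oligodendrocytes without the count filter (0.0346) and at clustering resolution 0.5 (0.0248). Without the mouse as a block, the calls of Cacna1i in all control nuclei and Rpl3 in mutant neurons were lost. Cortical values rest on few nuclei outside neurons and oligodendrocytes, and Apobec3 in cortical microglia passed the count filter in 6 of 12 fits without a mouse, at -1.14 to -1.02.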
